A study of Equus caballus with 4 samples.

Results

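Eukaryotic translation initiation and elongation factors (eIFs and eEFs) are the proteins that load the ribosome onto an mRNA, find the start codon and move the ribosome along the coding sequence. They were chosen by name: a gene was a member when its symbol in the scanner files began with EIF1 to EIF6, EEF1 or EEF2 and was neither an eIF2 kinase (EIF2AK) nor a cap-binding inhibitor (EIF4EBP). This gave 43 of the 24998 gene names on the array, with 77 of 43603 probes. The choice used no measured value. Of the 43 genes, 42 were tested with 74 probes, among 13975 gene names tested in all. The remaining gene, *eif4e1b*, was above background on 0 arrays in either channel and has no value.

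The cells were equine satellite cells, the resident stem cells of skeletal muscle, from the semitendinosus muscle of stallions aged 6 months, taken after 3 days in differentiation medium. Cells of the HMB-treated group had 50 µM β-hydroxy-β-methylbutyrate (HMB, a metabolite of leucine) for 24 h with 3 mM H2O2 in the last 1 h, and the control received the same H2O2 without HMB, so every sample was exposed to H2O2 and no unexposed cells enter the comparison. RNA of the HMB-treated cells (Cy5) and of the control (Cy3) was hybridised together on 4 horse arrays of 1 slide, and each array counted as 1 replicate. The cultures were taken from the isolate with the best viability and fusion, so the 4 arrays need not stand for 4 horses. The labels give 4 control replicates, yet the description of every array names control replicate 1, so the control may be a single RNA and its own spread cannot be told from these ratios. No array had its dyes swapped, so HMB and the Cy5 dye cannot be told apart.

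Initiation begins when eIF4F, made of the cap-binding protein eIF4E, the scaffold eIF4G and the RNA helicase eIF4A, prepares the capped end of an mRNA. eIF3 then bridges the mRNA to the small ribosomal subunit, which carries the initiator tRNA on eIF2, and eIF1, eIF5 and eIF5B act in start codon choice and subunit joining. Elongation needs eEF1A to deliver aminoacyl-tRNA and eEF2 to translocate the ribosome. Leucine and its metabolites are known for their link to this machinery in muscle through the mTOR pathway, which acts mostly on the phosphorylation of these proteins and their inhibitors. Phosphorylation is not seen by an mRNA array.

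A channel was well above background at 55.2% to 61.8% of the probes per array, the number of saturated spots was 0, and the number of arrays limits the precision. All values below are log2 ratios of HMB-treated over control, and a gene was called when its adjusted p in limma was at most 0.05 and its fold change (FC) at least 1.3. The ratios of all genes correlated between arrays with r of 0.835 to 0.911. Over the 42 translation factors r ranged from 0.13 to 0.873, and from 0.51 to 0.813 without *eef1a2*, whose dim probe gave widely spread ratios. Among markers of the culture, 6 of 8 tested muscle genes fell (*des*, desmin, -1.22 ± 0.29, SD, n = 4) and 4 of 6 tested fibroblast genes rose (*pdgfra* 1.82 ± 0.45), while *myod1* stood at 0.10 ± 0.19. Of the 2 tested leukocyte markers *cd68* rose (0.88 ± 0.20) and *cd14* was not called (0.20 ± 0.19, adjusted p = 0.0986, limma). *cd3e* and *cd79a* were above background on 0 arrays, as were all 4 endothelial markers. The markers' part in the results below was not tested, and in these bulk RNAs fewer cells of a type and less RNA per cell cannot be told apart.

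Most translation factor mRNAs differed little between the HMB-treated group and control. Of the 42 tested genes, 5 were called lower and 0 higher: *eif1*, *eif4a2*, *eif4g2*, *eif3a* and *eif4enif1*. This was 11.9% of the genes, where 28.9% of all genes tested were called (12.5% higher and 16.4% lower). With both channels required to be above background, *eif4enif1* left the test, and 4 of 39 members (10.3%) were called lower against 25.9% of all genes called. With normexp background correction and loess 9.52% of the members were called, all lower, against 12.9% of all genes (1028 higher and 772 lower). With no background correction and loess it was 9.52%, all lower, against 17.1% (1487 higher and 906 lower). In both settings the share called lower was larger among the members than among all genes. The 0 higher calls came from limma, which gave 3 genes with a positive ratio at an unadjusted p under 0.05, and the methods' t-test and treat also gave 0. No member changed 2-fold, against 6.38% of all genes. The median size of the ratio was 0.163 over the members and 0.229 over all genes. A further 9 genes had an adjusted p of at most 0.05 with a smaller FC, 6 of them negative and 3 positive, so that 14 of 42 (33.3%) passed the adjusted p alone against 46.3% of all genes. The ratio was negative for 30 of 42 members (71.4%) and for 57.3% of all genes, with medians of -0.11 and -0.060. This lean was not present with median centring without lowess, where 20 of 42 members (47.6%) and 50.8% of all genes were negative and the medians were 0.0086 and -0.0077. Among single probes, 12.1% of all were called higher and 16.4% lower, and no probe of a member was called higher. Of the 74 member probes, those called lower were 3 each of *eif1*, *eif3a* and *eif4g2*, 2 each of *eif4a2* and *eif5b*, and 1 of *eif4enif1*. Lower calls were thus no rarer among these probes than among all, though several of the probes overlap. Of the 42 genes, 26 had the same sign on all 4 arrays, and the share over all genes was not counted.

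**Figure D1:**
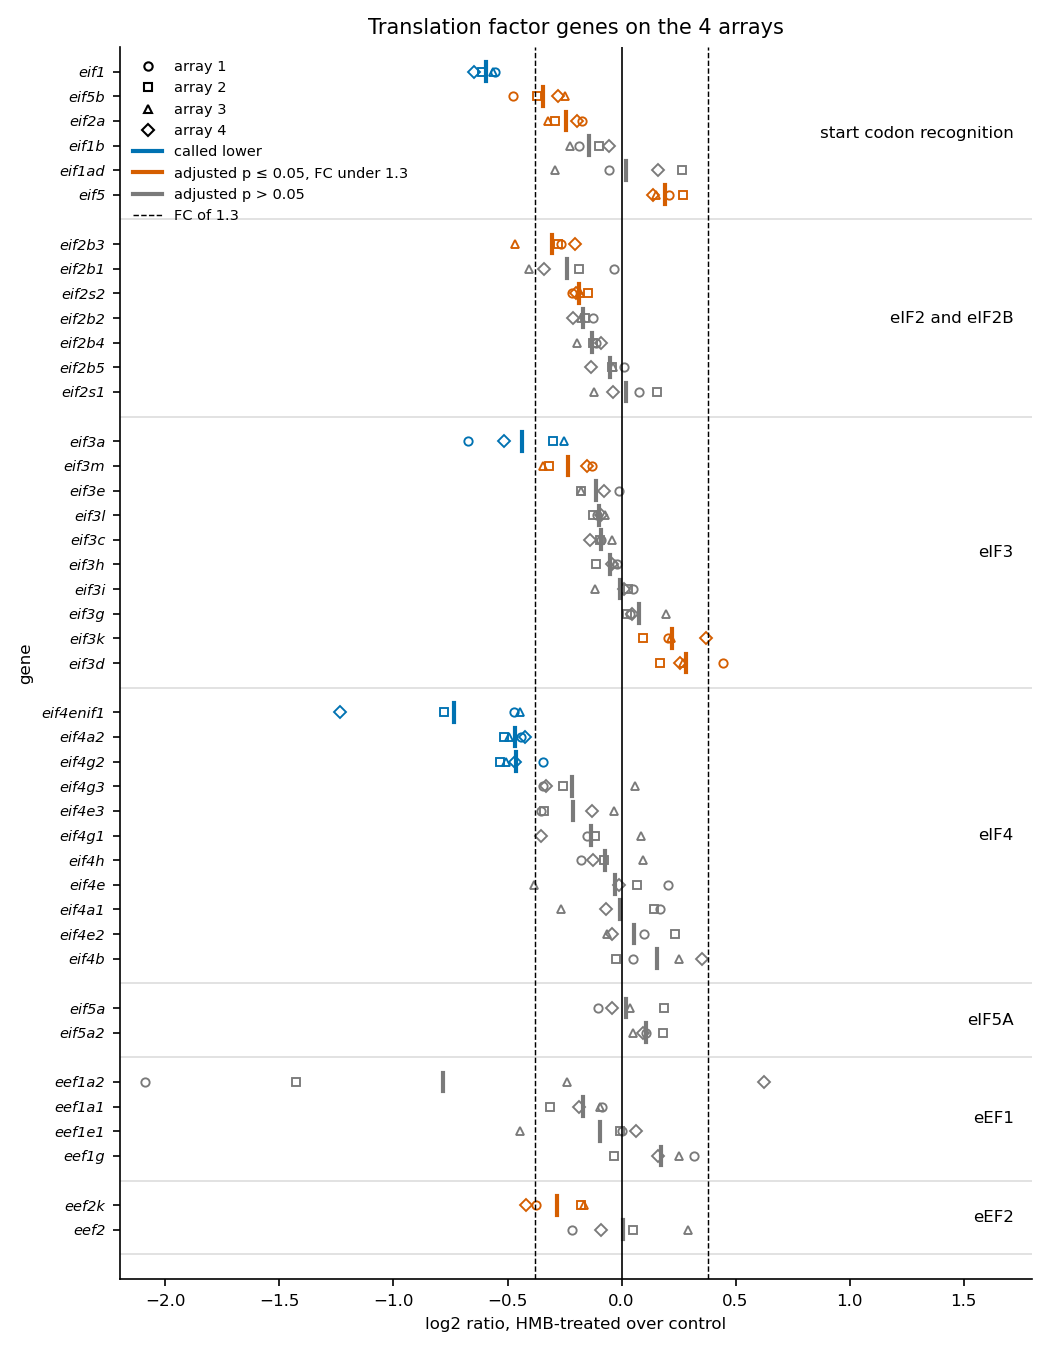
Log2 ratio of HMB-treated over control (horizontal axis) of the 42 tested translation factor genes on each of 4 arrays (symbols), with the mean as a bar and the genes in 7 groups by factor complex. The 5 genes called lower have all 4 arrays below 0, the ratios of *eef1a2* run from -2.09 to 0.62, and no gene reaches the dashed FC of 1.3 on the positive side in its mean.

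These calls depended on the normalization within the array. The deposited ratios were corrected by lowess for the brightness of the spot. With median centring and no lowess, 1 of the 5 genes (*eif4enif1*) remained called lower, and 3 others were called higher: *eef1a1* (0.55, adjusted p = 0.00321), *eif3d* (0.41) and *eif3k* (0.39). That was 9.52% of the members, against 30.9% of all genes called (2159 higher and 2156 lower). The ratios of *eif1*, *eif4a2*, *eif4g2* and *eif3a* were then -0.27, -0.34, -0.32 and -0.29, still negative and under an FC of 1.3. With limma's treat, which tests against an FC of 1.3, *eif1* alone was called.

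**Figure D2:**
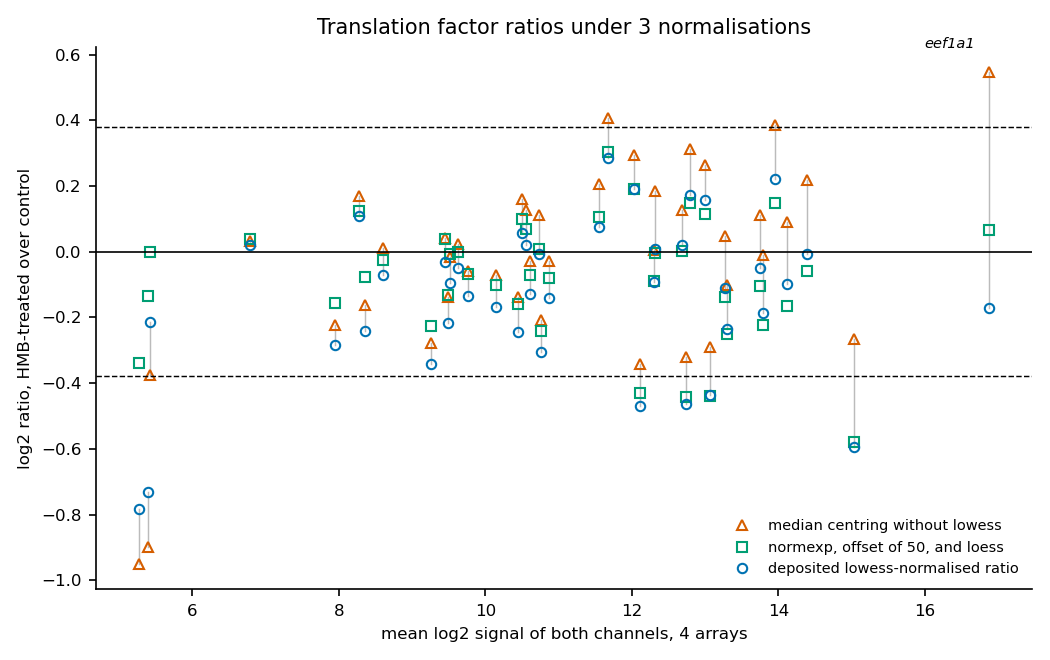
Log2 ratio of the 42 genes (vertical axis) under the deposited lowess normalization, under normexp background correction with loess, and under median centring without lowess, against the mean log2 signal of both channels (horizontal axis). The gap between lowess and median centring is widest for *eef1a1*, the brightest member, at -0.17 against 0.55, while *eif1* stays below 0 in each.

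Among the genes grouped under start codon recognition, 1 of 6 was called (16.7%, against 28.9% of all genes). It had the lowest adjusted p of all members in the deposited ratios. *eif1*, which keeps the scanning ribosome from stopping at wrong codons, was at -0.55, -0.61, -0.56 and -0.64 on arrays 1 to 4. The 4 arrays lay close together, and the mean of -0.59 ± 0.043 (SD, n = 4) was a 1.51-fold fall (adjusted p = 0.000595, limma). Its 3 probes on chromosome 11 were each called lower, at -0.56 to -0.63. The neighbouring probes overlap, so they are not independent readings. The bases shared by the first and second probe, on the minus strand of EquCab1 at chr11:19883043-19883072, show the stretch that was read by both:
eif1 shared stretch: gtagaatttcccttctgtcccttgtcacaa
The array's annotation names the gene and the transcript of a probe, and not its exon. The paralog *eif1b*, of similar sequence, stood at -0.19, -0.10, -0.22 and -0.054. Within each array *eif1* was lower than *eif1b*, by 0.45 ± 0.12 on the log2 scale on average.

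*eif5b*, the GTPase of subunit joining, lay just under the threshold. Its gene mean was -0.34 ± 0.10 (adjusted p = 0.00819), an FC of 1.27, from -0.47, -0.37, -0.25 and -0.28. Its 4 probes came from 2 transcript models of the array. Both probes of the upstream model were called lower (-0.55 ± 0.15 and -0.41 ± 0.18), and neither probe of the model that holds the stop codon was (-0.26 ± 0.25 and -0.16 ± 0.25). The gap between the models was 0.21, -0.69, -0.28 and -0.32 on the 4 arrays. Its sign on array 1 was opposite to the others, and the mean of -0.27 ± 0.37 gave an exact two-sided sign-flip permutation p of 0.25 (n = 4). A probe of each model is given, in the order upstream (chr15:6517133-6517192) and end of the coding sequence (chr15:6499446-6499505, EquCab1, minus strand), with the stop codon in capitals:
eif5b upstream: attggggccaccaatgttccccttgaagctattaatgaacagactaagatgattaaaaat
eif5b end: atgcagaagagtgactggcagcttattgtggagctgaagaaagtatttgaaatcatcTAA
*eif5*, which triggers GTP hydrolysis on eIF2, was positive on every array (0.21, 0.27, 0.15 and 0.14), with a mean of 0.19 ± 0.061 and an adjusted p of 0.0446. Its FC of 1.14 was below the threshold. Its 2 probes read 0.32 ± 0.11 and 0.061 ± 0.11. *eif2a*, an alternative initiator tRNA carrier, was at -0.25 ± 0.072 (adjusted p = 0.0212, FC 1.19). *eif1ad*, which is described as containing an eIF1A domain and was placed in this group by its name, was at 0.020 ± 0.25.

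No gene of eIF2, the initiator tRNA carrier, or of eIF2B, its exchange factor, was called. Of the 7 genes, 4 had a negative ratio at an unadjusted p under 0.05 and 0 a positive one, and the methods' t-test also called 0. Over all genes 28.9% were called by limma and 46.3% passed even the adjusted p, so the 4 genes say little about this group in particular. The median was -0.17. *eif2s1*, the alpha subunit whose phosphorylation halts initiation, was at 0.019 ± 0.12 with both signs among the arrays. *eif2s2*, the beta subunit, was at -0.22, -0.15, -0.18 and -0.20. These 4 values lay within 0.07 of each other, and the mean of -0.19 ± 0.029 had an adjusted p of 0.0433 at an FC of 1.14. Of the 5 eIF2B subunits, *eif2b3* was the lowest, at -0.31 ± 0.11 (adjusted p = 0.0139, FC 1.24), and *eif2b5*, the catalytic subunit, the highest, at -0.051 ± 0.060.

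eIF3 is the scaffold that recruits the small ribosomal subunit. Among its 10 subunits tested under their own symbol, 1 was called (10%, against 28.9% of all genes). *eif3a*, the largest subunit and a core of the complex, was at -0.68, -0.30, -0.25 and -0.51. All 4 arrays were negative, though arrays 1 and 4 were farther from 0 than the others, and the mean was -0.43 ± 0.20 (FC 1.35, adjusted p = 0.00897). Without array 1 *eif3a* was at -0.35 and was not called. Nor was it called by the methods' t-test on all 4 arrays (adjusted p = 0.0628). Its 3 probes on chromosome 1 gave -0.43 to -0.44 and were each called lower. The closest pair shares 40 bases, of which the first 30 are given (EquCab1, plus strand, chr1:12693238-12693267):
eif3a shared stretch: atataatagattgatcatgcaccgtatcca
*eif3a* was the lowest of the 10 subunits on 2 arrays and *eif3m* on the other 2. The subunit *eif3j*, known by its description alone, was lower still on array 3, at -0.43. *eif3m* was at -0.24 ± 0.11 (adjusted p = 0.0328). At the other end, *eif3d*, which can itself bind the cap, was at 0.44, 0.17, 0.27 and 0.26, and *eif3k*, a peripheral subunit, at 0.21, 0.093, 0.22 and 0.37. Both were positive on all 4 arrays and above the other 8 of these subunits on each of them. Of the subunits known by description alone, *eif3b* was above *eif3k* on array 2, at 0.16. Their means of 0.28 ± 0.12 (adjusted p = 0.0183) and 0.22 ± 0.11 (adjusted p = 0.0421) fell short of an FC of 1.3. The remaining 6 subunits lay between -0.11 (*eif3e*) and 0.076 (*eif3g*). The 2 probes of *eif3h* lay on both sides of 0, at 0.055 and -0.16. *eif3i*, with 5 overlapping probes, was at -0.0072 ± 0.074, and the group median was -0.071.

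Of the 11 tested genes of the eIF4 group, 3 were called lower (27.3%, against 16.4% of all genes called lower), of which 1, *eif4enif1*, rests on the control channel. *eif4a2*, the second paralog of the eIF4A helicase, was at -0.44, -0.52, -0.49 and -0.42. The arrays agreed within 0.10, and the mean of -0.47 ± 0.044 was a 1.38-fold fall (adjusted p = 0.00153). Both of its probes were called lower, at -0.49 and -0.45. They are adjacent on the plus strand of chromosome 19 (EquCab1, chr19:20879302-20879361 and chr19:20879342-20879401), the 20 bases in capitals belong to both, and 1 reading frame without a stop codon runs through the pair, so the fall was read from a single stretch of coding sequence:
eif4a2 first probe: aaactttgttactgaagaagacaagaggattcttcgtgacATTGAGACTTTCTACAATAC
eif4a2 second probe: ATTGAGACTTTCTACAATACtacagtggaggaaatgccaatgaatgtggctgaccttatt
*eif4a1*, the major paralog in most cells, was at 0.17, 0.14, -0.27 and -0.068, with both signs and a mean of -0.0053 ± 0.20. Its value averages 2 probes, of which 1 is described in its own record as *senp3*, a SUMO peptidase encoded next to *eif4a1*. That probe, on the plus strand of chromosome 11 with a span of chr11:49348692-49348861 that is longer than its 60 bases, is:
eif4a1 probe described as senp3: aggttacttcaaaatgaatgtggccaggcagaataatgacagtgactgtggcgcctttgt
It read 0.028 ± 0.31 and the other probe -0.038 ± 0.10, so the gene's value was near 0 with either. Within each array *eif4a2* was below *eif4a1*, by 0.61, 0.66, 0.23 and 0.36, and the mean difference was -0.46 ± 0.21 (-0.43 without the *senp3* probe).

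*eif4g2*, also called DAP5, is a relative of eIF4G that lacks the eIF4E-binding site and serves initiation without the cap. It was at -0.35, -0.53, -0.51 and -0.47, a mean of -0.46 ± 0.083 and a 1.38-fold fall (adjusted p = 0.00213). Its 3 overlapping probes on chromosome 7 were each called lower. The bases shared by 2 of them (EquCab1, minus strand, chr7:67705752-67705781) are:
eif4g2 shared stretch: gcatttgacctaaccactgcgaaaattcat
The cap-dependent scaffolds were nearer to 0. *eif4g1* was at -0.13 ± 0.18 and *eif4g3* at -0.22 ± 0.19, each with 1 array, array 3, above 0. The 2 probes of *eif4g1* read -0.0033 and -0.27. *eif4g2* was below *eif4g1* on all 4 arrays, with a mean difference of -0.33 ± 0.22, and below *eif4g3* by a mean of 0.25 ± 0.24, a gap that was -0.0018 on array 1.

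*eif4enif1*, also called 4E-T, carries eIF4E into the nucleus and to sites of mRNA storage. It was at -0.47, -0.78, -0.45 and -1.23, a mean of -0.73 ± 0.37 (adjusted p = 0.00645). Its single probe was dim and passed the filter through Cy3, the channel of the control, alone. Cy3 was above background on 4 arrays and Cy5 on arrays 2 and 3, so that the ratios of arrays 1 and 4 rest on a Cy5 signal at background and the size of the fall is uncertain. The arrays with the smallest and the largest of its processed Cy5 signals read 23.3 and 46.3 units. It was no longer called with normexp and loess (-0.14), with no background correction and loess (-0.19), with no filter on dim probes (-0.73, adjusted p = 0.0573) and by the methods' t-test (-0.73, adjusted p = 0.0737), and it left the test when both channels had to be above background. The probe (EquCab1, plus strand, chr8:5460800-5460859) is:
eif4enif1: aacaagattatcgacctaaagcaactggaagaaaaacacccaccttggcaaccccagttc
The cap-binding proteins themselves did not pass the test. *eif4e* was at -0.031 ± 0.25, *eif4e2* at 0.057 ± 0.14 and the dim *eif4e3* at -0.21 ± 0.16. *eif4b* and *eif4h*, cofactors of the helicase, were at 0.16 ± 0.17 and -0.071 ± 0.12. The median of the 11 genes was -0.13, and without array 3 or array 4 it was -0.21 or -0.061.

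**Figure D3:**
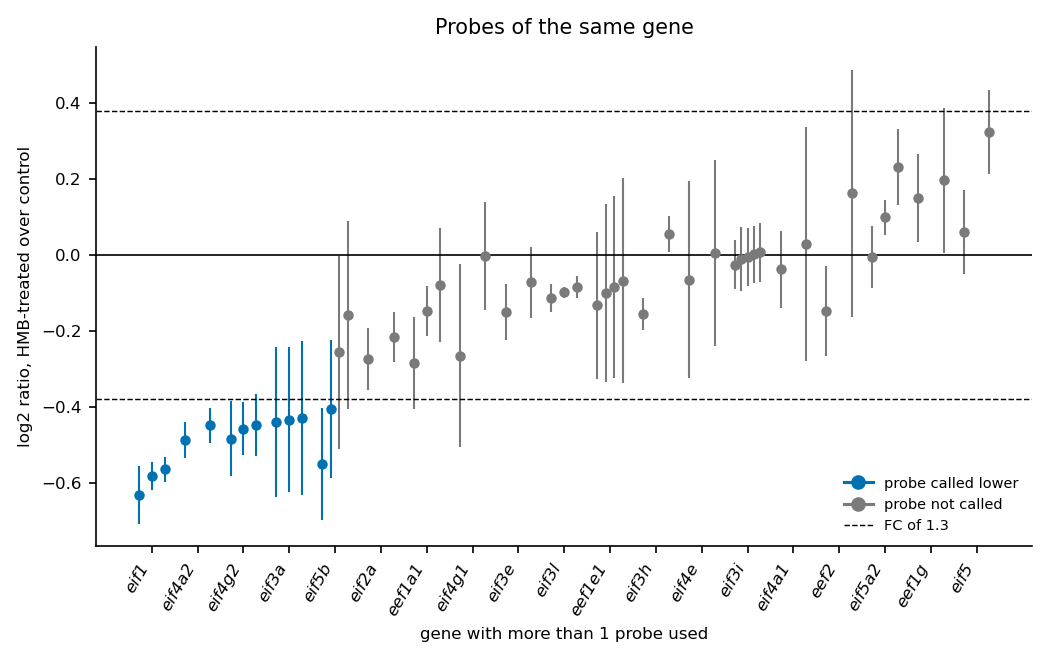
Mean log2 ratio (vertical axis) and SD over 4 arrays of every probe used, for the 19 translation factor genes with more than 1 probe. The probes of *eif1*, *eif4a2*, *eif4g2* and *eif3a* lie below the dashed FC of 1.3 and are all called lower, the probes of *eif5b* lie on both sides of it, and no probe is called higher.

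The elongation side showed no call. None of the 4 tested genes with an eEF1 name was called, with 1 at an unadjusted p under 0.05, and none of the 2 with an eEF2 name, with 1. The methods' t-test also called 0 in both groups. Over all genes 28.9% were called by limma and 46.3% passed the adjusted p alone. *eef1a1*, the carrier of aminoacyl-tRNA in most cells, was at -0.087, -0.31, -0.0935 and -0.19. All arrays were negative, and its mean of -0.17 ± 0.11 had an adjusted p of 0.0859. Its direction turned with median centring, as given above. *eef1a2*, the paralog that adult muscle fibres use in place of *eef1a1*, was at -2.09, -1.43, -0.24 and 0.62. The arrays disagreed in sign and the mean of -0.78 ± 1.21 was not called. Its single probe passed the filter through Cy3 alone, and Cy5 was above background on arrays 3 and 4 and not on arrays 1 and 2, which carry the low ratios, so no direction can be read for this gene. *eef1g*, a subunit of the exchange factor of eEF1A, was at 0.17 ± 0.15, and *eef1e1*, a scaffold of tRNA synthetases, at -0.097 ± 0.23. *eef2*, the translocase, was at 0.0076 ± 0.22 and its 2 probes differed in sign, at 0.16 ± 0.33 and -0.15 ± 0.12. *eef2k*, the kinase that inactivates eEF2, was at -0.38, -0.18, -0.16 and -0.42, and its mean of -0.28 ± 0.13 passed the adjusted p (0.0214) at an FC of 1.22. *eif5a* and *eif5a2*, which carry hypusine and help the ribosome past difficult peptide bonds, were at 0.020 ± 0.12 and 0.11 ± 0.054, with the 3 probes of *eif5a2* between -0.0061 and 0.23. Neither had an unadjusted p under 0.05. Another entry, known as eIF5A by its description alone, is given below.

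**Figure D4:**
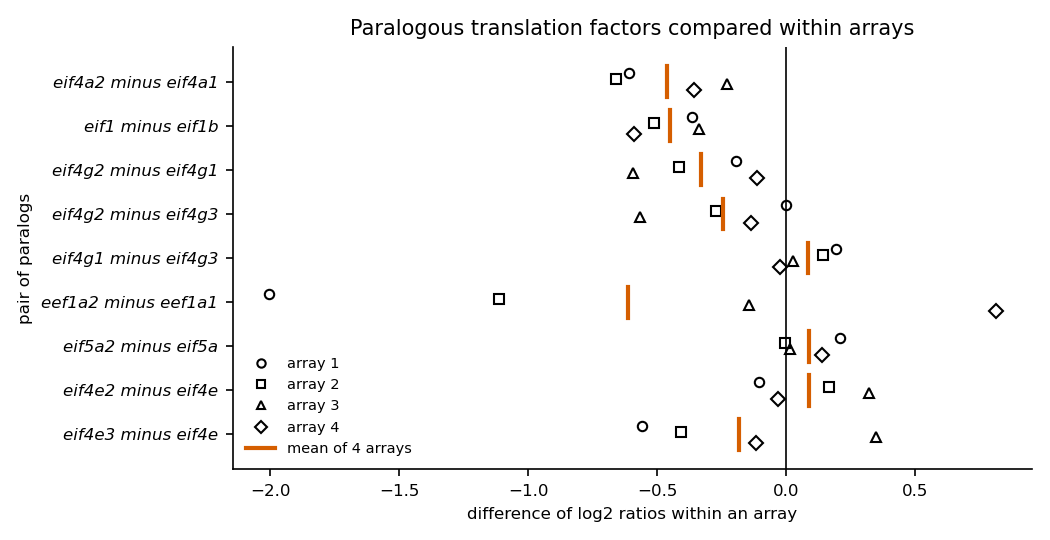
Difference of the log2 ratios of paralogous translation factors within each of 4 arrays (symbols) and its mean (bar), for 9 pairs. All 4 arrays lie below 0 for *eif4a2* minus *eif4a1*, *eif1* minus *eif1b* and *eif4g2* minus each of its paralogs, and the arrays for *eef1a2* minus *eef1a1* lie on both sides of 0.

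In all, 9 pairs of paralogs were compared within arrays. In 4 of them, those of *eif4a2*, *eif1* and *eif4g2*, the sign was the same on all 4 arrays, which gave an exact two-sided sign-flip permutation p of 0.125 (n = 4), the smallest that 4 arrays allow, and 0.281 after Benjamini-Hochberg adjustment over the pairs. With 4 arrays this exact test cannot reach 0.05. These pairs include genes that were called for their own ratio. Over 21 alternative settings the difference *eif4a2* minus *eif4a1* ranged from -0.54 to -0.40 and *eif1* minus *eif1b* from -0.53 to -0.24, and neither changed sign. Many of these settings cannot move such a difference, because they shift both genes alike (spike-in RNA) or change only the test (treat, the methods' t-test). The number of settings is therefore no measure of how firm the sign is. The differences *eif5a2* minus *eif5a* (0.088 ± 0.10), *eif4e2* minus *eif4e* (0.087 ± 0.19), *eif4e3* minus *eif4e* (-0.18 ± 0.40), *eif4g1* minus *eif4g3* (0.084 ± 0.10) and *eef1a2* minus *eef1a1* (-0.61 ± 1.22) had at least 1 array of the opposite sign.

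**Figure D5:**
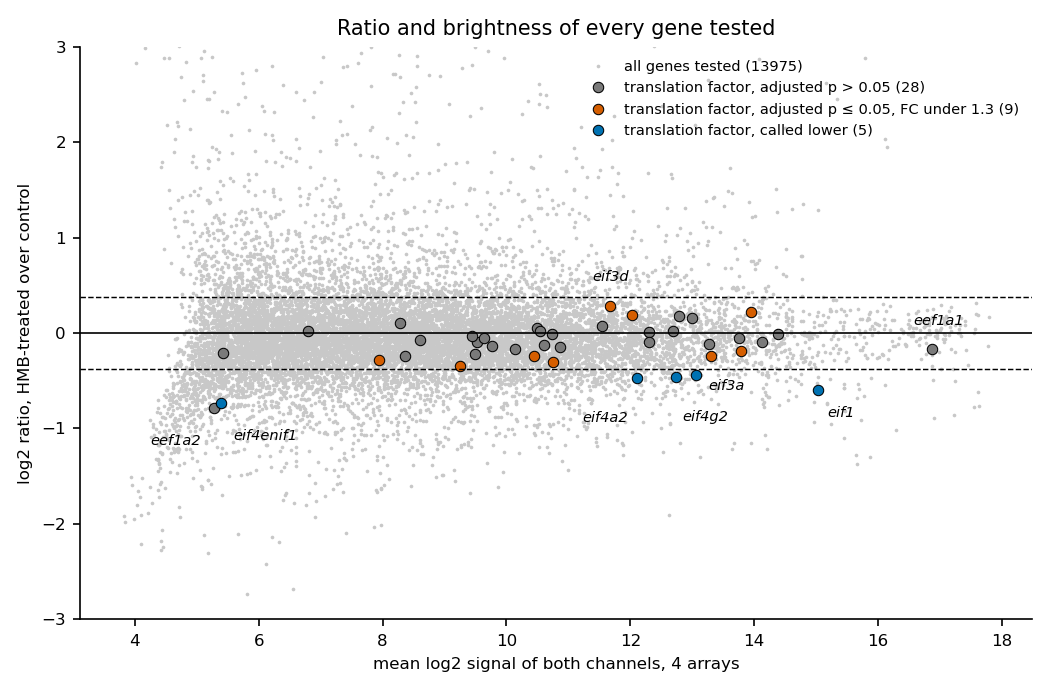
Log2 ratio (vertical axis, cut at 3 on either side with 123 genes beyond it) against mean log2 signal of both channels over 4 arrays (horizontal axis) of the 13975 genes tested, with the 42 translation factors marked. The factors lie in a band between -0.78 and 0.28, the 2 lowest are both dim, and the 5 called genes are on the negative side.

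Further factors on the array carry an accession, a locus number or another symbol as their name and are known as factors from their description alone. They were no members, and 9 of 10 such names were tested. None was called by limma, against 28.9% of all genes, or by the methods' t-test. Of their ratios, 2 were negative at an unadjusted p under 0.05, where 46.3% of all genes passed even the adjusted p. The beta subunit of eEF1 (described as *eef1b2*) was at -0.27, -0.44, -0.39 and -0.41, and its mean of -0.38 ± 0.074 (adjusted p = 0.00448) was an FC of 1.298, just under the threshold. Its call moved with the processing: it was called lower with the GC correction (-0.38), without array 1 (-0.41) and with scaling to spike-in RNA (-0.86), and higher with median centring (0.38). *eif3j* was at -0.27 ± 0.11 (adjusted p = 0.0217), while *eif2d*, *eif3b*, *eif3f*, *eif4a3*, *eif6* and *eef1d* lay between -0.063 and 0.038. A second entry described as eIF5A was at -0.12 ± 0.17 (adjusted p = 0.269, limma). The mRNAs of several elongation factors and eIF3 subunits begin with a terminal oligopyrimidine (TOP) tract, through which mTOR controls their translation. Of 9 such genes listed, 6 were tested under their own symbol. None of the 6 was called by limma, against 28.9% of all genes, or by the methods' t-test. Of the 6, 1 had an unadjusted p under 0.05. Their median was -0.021. The listed *eef1b2*, *eef1d* and *eif3f* were measured only under the other names given above. They enter neither these counts nor the median, and *eef1b2*, at -0.38, was lower than each of the 6.

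A list of 45 regulators and partners of these factors had 35 tested genes, of which 3 were called higher and 3 lower. This was 17.1% of them (8.57% in each direction), against 28.9% of all genes (12.5% higher and 16.4% lower). The median was -0.15, and -0.060 over all genes. *eif2ak2*, the double-stranded RNA-dependent kinase PKR that phosphorylates eIF2 alpha, was at 2.61, 2.95, 2.87 and 2.45. This was a 6.59-fold rise (2.72 ± 0.23, adjusted p = 7.79e-06), larger than any change among the factors. The other eIF2 kinases were not called: *eif2ak1* was at 0.0039 ± 0.13, *eif2ak3* at 0.16 ± 0.27 and *eif2ak4* at -0.34 ± 0.13 (adjusted p = 0.0107, FC 1.27). *gtpbp1*, a GTPase related to the elongation factors, rose by 0.64 ± 0.033 (adjusted p = 0.000426), and *pdcd4*, an inhibitor of the eIF4A helicase, by 0.63 ± 0.19 (adjusted p = 0.00199). *mtif2*, the initiation factor of mitochondria, fell by 0.50 ± 0.13 (adjusted p = 0.00257). *paip2*, a repressor of the poly(A)-binding protein, fell by 0.49 ± 0.20 (adjusted p = 0.00601), and *abce1*, which splits ribosomes after termination, fell by 0.47 ± 0.13 (adjusted p = 0.00342). With normexp and loess, *mtif2*, *paip2*, *abce1* and *pdcd4* kept their sign and did not reach an FC of 1.3. *eif4ebp1*, the inhibitor of eIF4E, was at 0.31 ± 0.13 (adjusted p = 0.0155, FC 1.24), and the S6 kinases *rps6kb1* and *rps6kb2* at -0.35 ± 0.055 and -0.28 ± 0.027, also under the FC threshold.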

How the data were processed

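RNA of 4 HMB-treated cultures and control was measured on 4 two-colour Agilent horse arrays of 1 slide with 60-base probes annotated on EquCab1. Per the file headers, Feature Extraction 10.10.1.1 wrote the deposited files, whose intensity columns hold spot brightness per channel. The authors' log10 ratios, Cy5 over Cy3 after background subtraction, linear scaling and lowess, were read from the scanner files, and the deposited table holds the same log10 ratios within 3.96e-05. Signals at background were replaced there by a surrogate. The ratios of dim probes depended on how background was handled, as for *eif4enif1* (-0.73 as deposited, -0.14 with normexp and loess). The unit log2 was reached by a change of base from the authors' values.

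Control spots and outlier spots were left out. A probe was used when 1 channel, the same on every array, was well above background on all 4 arrays. Probes of a gene name were averaged, names with at least 3 ratios were tested against 0 with limma 3.58.1 in R 4.3.3, and p was adjusted by Benjamini-Hochberg over all 13975 names. Thresholds were those of the methods. Another 20 settings were recomputed, and for *eif4a1* 1 more that was added after seeing the data, as were the settings for the regulators, the TOP genes and the factors known by description. The model was tested on simulated data.

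The text names every called member, the brightest member of each group, any member whose probes differed by over 1 on the log2 scale or were called against the gene's direction (no member did), and, of the regulators, the 5 largest called changes. *abce1* and the uncalled genes given with values beyond this rule were chosen after their values were seen. The members, groups and lists were chosen with earlier results of these data known. The labels do not say whether replicates came from separate animals, so p measures the spread between these arrays.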

Additional observations from a re-analysis of the deposited data

Results flagged for a closer look

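Among 42 genes and 7 group medians, 2 genes had an array that stood apart from the other 3 by Dixon's test, where chance flags about 1 in 20. The ratio of *eef1e1* on array 3 was -0.44, with the other arrays between -0.0070 and 0.062. The ratio of *eif3g* on array 3 was 0.20, with the other arrays between 0.025 and 0.046. Neither gene was called in the deposited ratios with or without array 3.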

How the results depend on the processing

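Of the alternatives, 11 settings left the same 5 genes called lower: the brightest probe, either channel above background per array, scaling between arrays, the deposited table, outlier spots kept, the GC correction, the moderated trend with robust fit, array weights, leaving out array 2 or 3, and the *eif4a1* change. Some of these could hardly change the calls: the deposited table holds the same ratios, and the *eif4a1* change alters no called gene. The number of settings is no measure of how firm the calls are. Leaving out array 4 added *eef1a2* (-1.25), of which 2 of the remaining 3 arrays had Cy5 at background, and leaving out array 1 removed *eif3a*. The count of members called lower was 4 to 6 when an array was left out and that of members called higher 0.

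With median centring the members called were 3 higher and 1 lower (9.52%), against 30.9% of all genes (2159 higher and 2156 lower). The regulators called higher were 5 and the TOP genes called higher 1. The medians became 0.15 for eEF1, -0.027 for eIF2 and eIF2B, 0.10 for eIF3, -0.058 for eIF4, 0.15 for eIF5A and -0.084 for start codon recognition, and *eef1a1* (0.55) and *eef1b2* (0.38) changed sign. Scaling to the spike-in RNA moved the median of all genes from -0.060 to -0.55 and gave 37 members lower, 651 genes higher and 9683 lower, 1 regulator higher and 27 lower, and 4 TOP genes lower. Its medians were -0.62 for eEF1, -0.63 for eEF2, -0.66 for eIF2 and eIF2B, -0.56 for eIF3, -0.62 for eIF4, -0.42 for eIF5A and -0.68 for start codon recognition. There *eef2* (-0.48), *eif2s1* (-0.47), *eif3g* (-0.41), *eif4e2* (-0.43), *eif5a2* (-0.38), *eif5a* (-0.47) and *eif1ad* (-0.47) passed below 0 and the thresholds, as genes near 0 must when every ratio of an array is shifted alike, so this says nothing about these genes in particular. The median of the members was then -0.59.

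With normexp and loess 4 members were lower and 0 higher (9.52%), against 12.9% of all genes called. There 1028 genes were higher and 772 lower, so that 57.1% of the calls were higher against 43.2% in the deposited ratios. In that setting 1 regulator was lower. The medians were 0.029 for eEF1, -0.077 for eIF2 and eIF2B, -0.025 for eIF4 and -0.12 for start codon recognition. With no background correction and loess 4 members were lower and 0 higher (9.52%), against 17.1% of all genes called. There 1487 genes were higher and 906 lower (62.1% of calls higher), and 1 regulator was lower. The medians were 0.0125, -0.075, -0.004987 and -0.091 for the same groups. The median of eIF4 was -0.071 with the brightest probe and with both channels above background, and ran from -0.21 to -0.061 when an array was left out. The methods' t-test gave 3 members lower (*eif1*, *eif4a2*, *eif4g2*), or 7.14%, against 19.7% of all genes called (1155 higher and 1598 lower). Treat gave 1 member lower, 827 genes higher (53.8% of calls) and 711 lower, and 0 regulators lower. The causes of these shifts were not tested. No paired analysis was possible because there is 1 group of ratios, in which both channels of an array already form the pair. Signal over background limits *eif4enif1*, *eef1a2* and *eif4e3*, whose Cy5 channel was above background on 2 of 4 arrays.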
